A study of Drosophila melanogaster with 4 samples.

Results

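The clusters of POF binding that lie on the X chromosome of Drosophila melanogaster between the arm ends were described here, in steps of 1 Mb along the chromosome. POF was profiled by chromatin immunoprecipitation and sequencing in wild-type Oregon-R larvae of the 3rd instar, with an affinity-purified rabbit polyclonal antibody raised against residues 1 to 150 of the protein. The 4 samples comprised 2 ChIP libraries and 2 input libraries, all from this 1 strain, genotype and stage, and whole larvae were homogenized, so that tissues were mixed. The labels give neither the sex of the larvae nor whether replicates came from separate cultures, so the spread between replicates may be technical. Titles and source names were followed where they disagreed with descriptions. The description of ChIP replicate 2 names only input DNA and no antibody, and that of input replicate 1 names the antibody. Whether the library labelled ChIP replicate 2 is a ChIP library was not tested, and every replicate 2 value and every comparison of the replicates below depends on its title. A member is an enriched cluster of the authors' combined list on X whose midpoint falls between positions 1000001 and 20900000 (FlyBase release 5). This span of 19.9 Mb held 2781 of the 20574 clusters of the combined list, out of 3053 on the whole of X. The same rule found 667 of 6433 clusters in the list of replicate 1 and 954 of 5786 in that of replicate 2. The single region called depleted was not on X.

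POF is an RNA-binding protein that coats the small chromosome 4, where it binds the bodies of active genes, and it is one of the few proteins known to act on a whole autosome. The X chromosome has a comparable system of its own in males, the dosage compensation complex with its roX RNAs, which raises transcription from the single male X. POF is also known to bind near the roX genes. The gene table used here is of release 6 and coordinates were not converted, so no gene was placed on the clusters, and no sequence is shown because no genome of release 5 was used here.

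The clusters of the span covered 27.0% of its bases in the combined list, at 139.7 clusters per Mb. Replicate 1 covered 5.65% of the span, with 33.5 clusters per Mb, and replicate 2 covered 11.1%, with 47.9 per Mb. Replicate 1 clusters had a median length of 1557 bp, replicate 2 clusters one of 2018.5 bp and combined clusters one of 1560 bp, so that replicate 2 held more and longer clusters on X than replicate 1. In the combined list 10% of clusters were 1047 bp or shorter and 10% were 3205 bp or longer, and 83 of 2781 reached 5000 bp. The score that the authors attach to a cluster, taken as log2 from its values and without a stated reference, had a median of 0.74 in replicate 1, 0.71 in replicate 2 and 0.50 in the combined list. Scores are on each list's own scale and are compared only within a list. At the low end of the span the last cluster outside ended at position 996944 (score 0.49) and the first inside started at 1004735 (0.47). At the high end, the last cluster inside, at 20898389 to 20899789, had the lowest score of the span (0.09) and the next one outside, from 20901114, scored 0.52.

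Coverage along X was uneven, with 1 dense step at the distal side and no steady rise or fall from there to the proximal side. The first step, from 1000001 to 2000000, was covered to 50.6% in the combined list by 214 clusters. It was also the step with the highest coverage in each replicate list, at 12.2% in replicate 1 and 20.8% in replicate 2. The second and the eighteenth step followed in the combined list, at 34.2% and 33.98%. Autosomal steps reached similar values, with 46.3% in step 1 of 3L and 44.4% in step 19 of 3R. The lowest shares were those of steps 3 (16.9%), 12 (18.9%) and 4 (21.1%). Step 3, from 3000001 to 4000000, lay only 1 step away from the dense region and held 105 clusters, 2 of them at least 3000 bp long, against 47 such clusters in step 1. In the replicate lists step 3 was covered to 3.39% and 5.72%. The latter was the lowest share of replicate 2, and the lowest of replicate 1 was 3.14%, in step 12. Over all 20 steps the covered share averaged 26.98% ± 7.34 (SD over 20 steps) in the combined list, with a coefficient of variation of 27.2%, against 21.8% over the 67 steps of arms 2L, 3L and 3R. Spearman's rho between step number and covered share was -0.04 over 20 steps, and 0.12 without the first step.

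**Figure D1:**
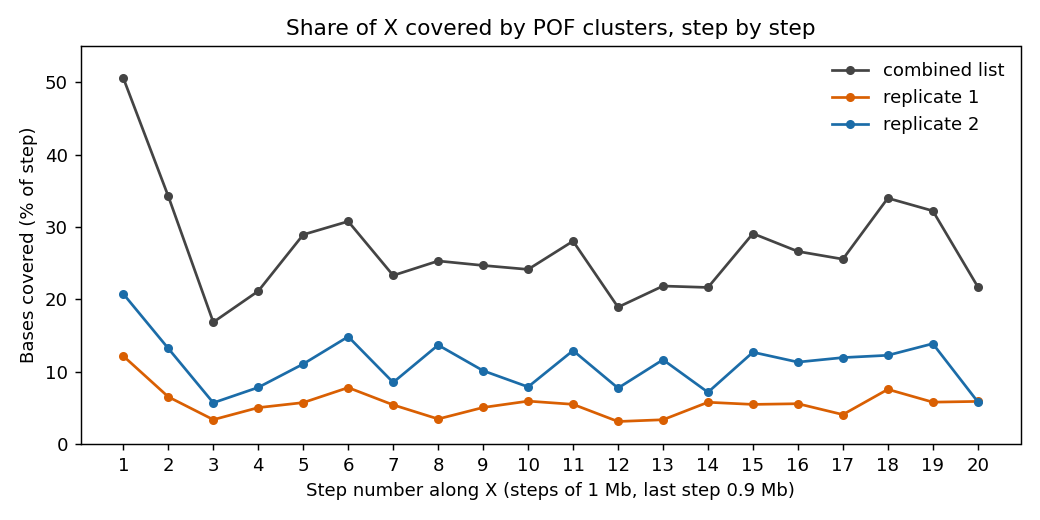
Share of bases covered by POF clusters (vertical axis, % of the step) in each of the 20 steps along X (horizontal axis, step number), with 1 line for each list. Step 1 is the highest in all 3 lists, at 50.6%, 12.2% and 20.8%, and replicate 2 lies above replicate 1 in 19 of 20 steps.

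Replicate 2 covered more of X than replicate 1 in 19 of 20 steps. The ratio of covered shares between replicate 2 and replicate 1 had a median of 1.96 over the X steps and ran from 0.99 in step 20 to 3.93 in step 8. In step 8, replicate 1 covered 3.49% with 22 clusters and replicate 2 covered 13.7% with 54. Step 20, the most proximal, was the exception, with 5.91% in replicate 1 and 5.86% in replicate 2. On 2L, 3L and 3R replicate 2 covered more in 42 of 67 steps, and the median ratio was 1.11. Counted by clusters, replicate 2 was ahead in 18 of 20 steps of X and in 16 of 67 autosomal steps. These counts set 2 libraries against each other, since steps of 1 library are not replicates, and the depth of either library is unknown.

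**Figure D2:**
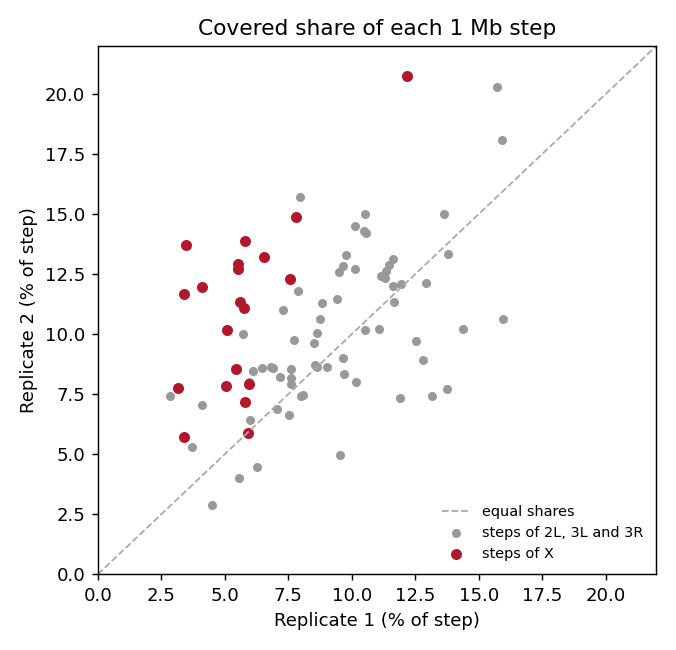
Covered share of each step of about 1 Mb in replicate 1 (horizontal axis, %) and replicate 2 (vertical axis, %), for 20 steps of X and 67 steps of 2L, 3L and 3R. Of the X points, 19 lie above the line of equal shares, and step 1 of X, at 12.2% and 20.8%, lies near step 19 of 3R (15.7% and 20.3%) and step 1 of 3L (15.9% and 18.1%).

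The rank of steps was only loosely shared between the replicates. Over the 20 steps of X the covered shares of replicate 1 and replicate 2 had a Spearman's rho of 0.41 and a Pearson's r of 0.64. Without step 1 they were 0.31 and 0.31, so the value of r rests largely on that step. Over the 67 autosomal steps rho was 0.60 and r was 0.61. Median scores of steps showed no positive relation on X (rho -0.22 over 20 steps), nor did median lengths (rho -0.23). All steps of a list come from the same library, so these coefficients are descriptions and carry no p-value.

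Whether X was covered less or more than the autosomal arms depended on the replicate. The arms 2L, 3L and 3R, with the same lengths left out at their ends, served for comparison and are meant by autosomal arms here. Arm 2R, which is not among them, was covered to 11.2% in replicate 1 and to 12.5% in replicate 2. With 2R added, the mean difference in coverage was -1.83 ± 3.30 percentage points (SD, n = 2). In replicate 1, X was covered to 5.65% and the autosomal arms to 9.43%, a ratio of 0.60. In replicate 2 the shares were 11.1% and 10.1%, a ratio of 1.10. The mean over both was 8.37% ± 3.85 for X and 9.76% ± 0.46 for the autosomal arms (SD, n = 2), a difference of -1.39 ± 3.39 percentage points that is within the spread between replicates (exact two-sided sign-flip permutation test, p = 1). Cluster numbers behaved alike, at 33.5 per Mb on X against 53.7 in replicate 1 and 47.9 against 44.7 in replicate 2 (mean difference -8.48 ± 16.6 per Mb, n = 2, exact permutation p = 1). Median lengths differed by -32.5 bp in replicate 1 and by 35.5 bp in replicate 2 (mean 1.5 ± 48.1 bp, n = 2, exact permutation p = 1). With 2 replicates the smallest two-sided p of this test is 0.5. Among clusters at or above the median score of their list, the mean differences had the opposite sign, at 1.77 percentage points, 9.83 clusters per Mb and -241.5 bp (n = 2, exact permutation p = 0.5 for each). That filter kept 83.1% of X and 43.9% of autosomal clusters in replicate 1, and 73.0% and 43.8% in replicate 2. These signs are therefore not separate from the difference in score described below. In the combined list X had 139.7 clusters per Mb and 27.0% coverage, against 166.1 per Mb and 30.8% on the autosomal arms, and 16 of 20 X steps lay at or below the autosomal median of 31.7%.

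Scores on X were above those of the autosomal arms in both replicates. The median score was 0.74 on X and 0.62 on the autosomal arms in replicate 1, and 0.71 and 0.59 in replicate 2. The mean difference was 0.12 ± 0.0012 on the log2 scale (SD, n = 2), far larger than its spread, and the exact sign-flip permutation test gave p = 0.5, the smallest that 2 replicates allow. Among clusters at or above the median score of their list the difference was 0.04 ± 0.043 (SD, n = 2, exact permutation p = 0.5), no larger than its spread. This filter cuts on the very score that is compared, and it kept a larger share of X clusters than of autosomal ones. In the combined list the medians were 0.50 and 0.42. The shift ran along the whole span. Each of the 20 X steps had a median score in the combined list above that of every step of 2L, 3L and 3R. The range was 0.48 to 0.54 on X and 0.40 to 0.45 over these 67 autosomal steps. Arm 2R and chromosome 4 were not divided into steps, so X was not set against them in this way. In replicate 1, 19 of 20 X steps exceeded the highest autosomal step (0.667), and the other one, step 16, stood at 0.666. In replicate 2, 13 of 20 exceeded the highest autosomal step (0.69) and all 20 exceeded the autosomal median of 0.59.

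The higher scores on X were seen at the low end of the distribution as well as at its centre. The 10th percentile of scores was 0.59 on X and 0.50 on the autosomal arms in replicate 1, 0.52 and 0.44 in replicate 2, and 0.40 and 0.33 for combined clusters. The 90th percentile was 0.87 and 0.74 in replicate 1, 1.17 and 1.04 in replicate 2, and 0.64 and 0.52 for combined clusters. Of the X clusters, 81.6% scored at or above the combined list's median over all 6 arms (0.43), as against 43.4% of the autosomal ones. The 6 arms are X itself, 2L, 2R, 3L, 3R and chromosome 4. In replicate 1 the shares were 83.1% and 43.9%, and in replicate 2 they were 73.0% and 43.8%. Within each of 5 length classes of the combined list the X median was the higher one. It was 0.50 against 0.42 for clusters under 1500 bp and 0.62 against 0.55 for those of 5000 bp or more. Among combined clusters touched by neither replicate list the median was 0.50 on X and between 0.416 and 0.418 on 2L, 3L and 3R. No source used here says how scores were scaled between chromosomes.

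**Figure D3:**
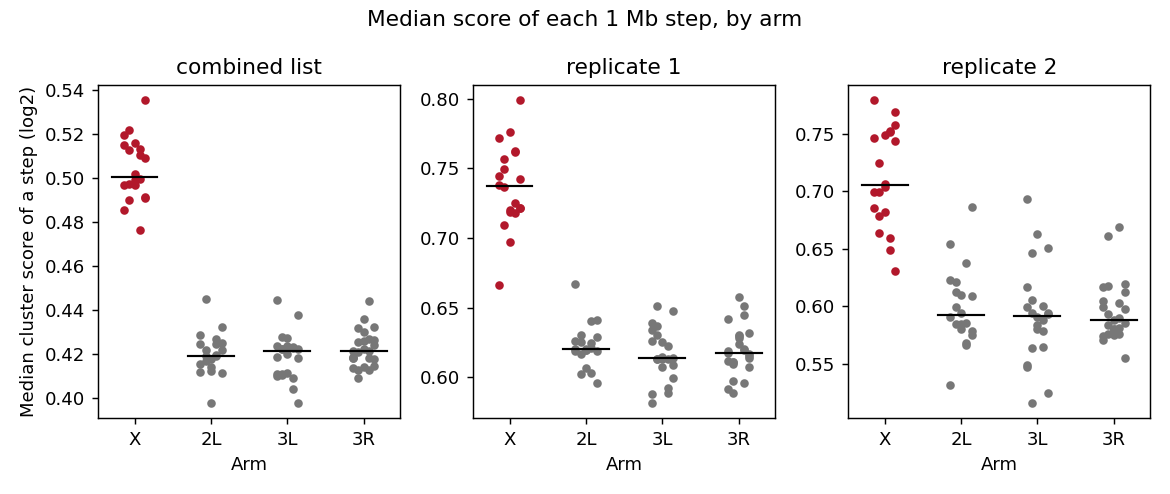
Median cluster score (vertical axis, log2, on each list's own scale) of each step of about 1 Mb on X, 2L, 3L and 3R, with 1 panel for each list and a black bar at the median over steps. In the combined list all 20 X steps (0.48 to 0.54) lie above all 67 autosomal steps (0.40 to 0.45).

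Cluster length and density went together along X, whereas score and density did not. Median lengths of steps in the combined list ran from 1360 bp in step 12 to 1923.5 bp in step 1, and had a rho of 0.63 with clusters per Mb over 20 steps (0.57 without step 1). The same coefficient was 0.57 over 67 autosomal steps. Between clusters per Mb and median score rho was -0.07 over the X steps. In replicate 2, step medians of length lay between 1786 and 2173 bp, and in replicate 1 between 1430.5 and 1670.5 bp, so those of the replicates did not overlap. Clusters of at least 3000 bp made up 12.1% of the combined list on X, 17.8% of replicate 2 and 2.25% of replicate 1. Across clusters within a list, longer clusters scored higher in replicate 2 (rho 0.64 over 954 clusters) and less clearly in replicate 1 (0.26 over 667) and in the combined list (0.17 over 2781).

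The 5 longest clusters of the span all ended at or before position 10372578, and 4 of them were touched by both replicates. The longest, at 1764815 to 1785284 (20470 bp, score 0.96), was covered to 41.8% by replicate 1 clusters and to 65.7% by replicate 2 clusters, with 3 clusters of each list inside or across it. Its neighbour at 1752087 to 1764805 (12719 bp, score 0.60) was touched by no replicate 1 cluster, while replicate 2 covered 75.6% of it. The other three were at 6710309 to 6722890 (12582 bp), 10360223 to 10372578 (12356 bp) and 8972247 to 8984493 (12247 bp). Replicate 1 covered 30.1%, 12.4% and 11.3% of them and replicate 2 covered 42.9%, 33.6% and 83.4%.

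Spacing differed between the lists. Gaps had a median of 14605.5 bp in replicate 1 and of 7013 bp in replicate 2, and the denser combined list gave 2731.5 bp. On the autosomal arms the medians were 9172, 7883 and 2216 bp in the same order, so the X median was the wider one in replicate 1 and for combined clusters, and the narrower one in replicate 2. Gaps under 1000 bp made up 25.9% of all gaps on X in the combined list and 29.9% on the autosomal arms. Step medians of the gap ran from 1533 bp in step 1 to 4537.5 bp in step 12. On X the combined list held 77 runs of clusters less than 100 bp apart, with 156 clusters in all and at most 3 in 1 run. Gaps under 100 bp made up 2.84% of all gaps there, against 3.82% to 4.07% on 2L, 2R, 3L and 3R. The widest run was that of the pair of long clusters at 1752087 to 1785284 (33198 bp). The next was a pair at 6710309 to 6726799 (16491 bp), followed by 5215255 to 5226186 (10932 bp), 1369453 to 1378217 (8765 bp) and 2071691 to 2080378 (8688 bp).

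**Figure D4:**
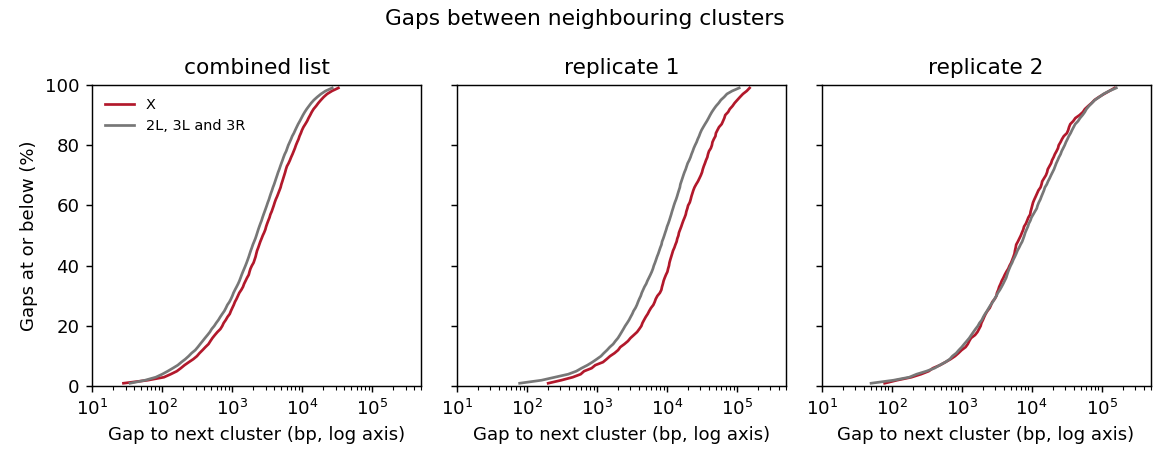
Cumulative share of gaps (vertical axis, %) at or below a given width (horizontal axis, bp, log axis) between neighbouring clusters on X and on 2L, 3L and 3R, with 1 panel for each list. The X median is the wider one in the combined list (2731.5 against 2216 bp) and in replicate 1 (14605.5 against 9172 bp), and the narrower one in replicate 2 (7013 against 7883 bp).

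The 5 widest stretches of X without a combined cluster measured between 54.8 and 78.0 kb, and step 3 held 2 of them. The widest ran from 3483584 to 3561620 (78.0 kb) and the third from 3068636 to 3139077 (70.4 kb). The second ran from 15900817 to 15973857 (73.0 kb), and the last 2 from 8374001 to 8435822 (61.8 kb) and from 11063327 to 11118097 (54.8 kb). Replicate 1 had no cluster in any of these 5 stretches. Replicate 2 had 1 in the second and 1 in the third. Other arms held stretches of similar width, the widest being 76713 bp on 2L, 68810 bp on 3L, 57949 bp on 3R and 89602 bp on 2R.

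Agreement between the replicates was partial and differed with the direction in which it was counted. Of the 667 replicate 1 clusters, 213 (31.9%, exact 95% interval 28.4% to 35.6%) were touched by a replicate 2 cluster by at least 1 bp. The share was 27.8% over all 6 arms, X included. Of the 954 replicate 2 clusters, 212 (22.2%, 19.6% to 24.996%) were touched by replicate 1, against 29.2% over all arms. On 2L, 3L and 3R the first share lay between 25.03% and 28.8% and the second between 30.8% and 31.9%. These intervals cover counting error over clusters only. Replicate 1 covered less of X and replicate 2 more of it, and each share moves with the coverage of the other list. Bases behaved in the same way. Of the bases in replicate 1 clusters 25.96% were also in replicate 2 clusters, which covered 11.1% of the span, and of those in replicate 2 clusters 13.2% were in replicate 1 clusters, which covered 5.65%. Bases in both lists made up 9.60% of those in either list on X and between 11.4% and 12.7% on the 3 autosomal arms.

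Replicate clusters that overlapped differed in length. Over 213 overlapping pairs, whose overlap itself bounds the distance, midpoints were a median of 558 bp apart, against 609.5 to 681.75 bp on 2L, 3L and 3R. Of the 213 replicate 1 clusters, 100 (46.9%) lay wholly inside the replicate 2 cluster, against 32.2% to 36.9% on those arms. The replicate 2 cluster was the longer in 172 pairs, with median lengths of 2448 and 1684 bp. The 454 replicate 1 clusters without a partner had a median distance of 9023 bp to the nearest replicate 2 cluster, against 8392 to 9173 bp on the 3 autosomal arms. Of them 48 (10.6%) had one within 1000 bp, against 10.04% to 10.6%, and 212 (46.7%) had none within 10000 bp, against 45.6% to 47.8%. For clusters without a partner, X values were thus close to or within the autosomal range.

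Agreement varied along X, and along the autosomal arms as well. The share of replicate 1 clusters touched by replicate 2 ran from 17.1% in step 7 (6 of 35) to 59.1% in step 8 (13 of 22), and that of replicate 2 clusters touched by replicate 1 from 11.5% in step 16 (6 of 52) to 34.0% in step 19 (17 of 50). Over the 67 steps of 2L, 3L and 3R the first ran from 5.66% to 50% and the second from 12.1% to 46.7%. Bases in both lists made up 13.8% of those in either list in step 2, the highest value, and 4.59% in step 7, the lowest. Autosomal steps ran from 3.25% to 21.3%. In the combined list the share touched by both replicates was highest in steps 2 (11.4%) and 1 (10.7%) and lowest in step 3 (3.81%, 4 of 105). On autosomal steps this share touched by both ran from 1.92% to 18.75%. Its rho with the covered share was 0.79 over 20 steps of X and 0.53 over the autosomal steps, and both quantities rest on the same clusters.

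Most combined clusters on X had no counterpart in 1 of the replicate lists or in either. Of the 2781, both lists touched 212 (7.62%, against 8.57% over all 6 arms), replicate 2 alone 711 (25.6%, against 19.7%), replicate 1 alone 399 (14.3%, against 20.7%) and neither 1459 (52.5%, against 51%). Clusters touched by both were the longest, with a median of 3598 bp and a median score of 0.63. Those touched by neither had medians of 1226 bp and 0.50. That length of 1226 bp was below the shortest cluster of either replicate list in the span (1301 bp). The shortest combined cluster measured 1001 bp. The class under 1500 bp therefore includes lengths absent from both replicate lists. How far its share touched by neither rests on this was not tested. The share touched by both was 0.16% of 1286 clusters under 1500 bp and 69.9% of 83 clusters of 5000 bp or more. Longer clusters offer more bases to be touched. Of the latter 83, none was left untouched. On the autosomal arms 75.1% of the 265 clusters of that class were touched by both and 0.75% by neither. In 4 of 5 length classes, all but that under 1500 bp (0.16% against 0.11%), the share touched by both was lower on X than on the autosomal arms, as in the class from 3000 to under 5000 bp with 32.4% against 40.8%. By score, 36.6% of the X clusters from the 90th percentile upwards and 1.58% of those below the 25th percentile were touched by both.

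**Figure D5:**
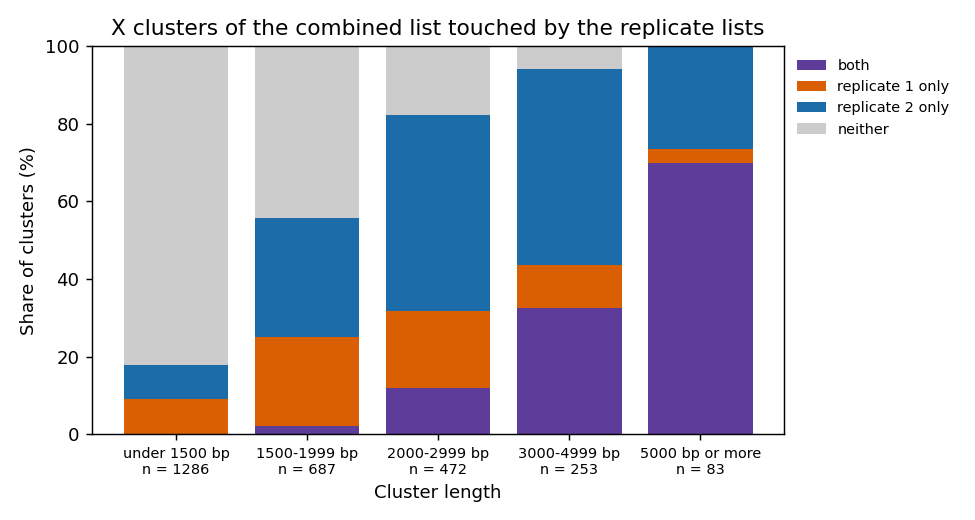
Share of X clusters of the combined list (vertical axis, %) touched by both replicate lists, by 1 of them or by neither, in 5 classes of cluster length (horizontal axis, with n). The share touched by neither is 82.0% under 1500 bp and 0 at 5000 bp or more, and the share touched by both reaches 69.9%. Combined clusters start at 1001 bp, while no replicate cluster of the span is shorter than 1301 bp.

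Every step of X held at least 4 clusters touched by both replicates, and the highest-scoring of these in each step was named. The 20 clusters scored between 0.59 and 1.99 in the combined list (median 1.35) and were 2100 to 8202 bp long. Replicate 2 matched them more fully than replicate 1, covering between 61.7% and 100% of each (median 95.7%) against 22.4% to 96.2% (median 61.6%), and covered more in 19 of the 20. A touch by both lists was required by the rule of choice. Over the whole span replicate 2 clusters were also longer (median 2018.5 against 1557 bp) and covered more bases (11.1% against 5.65%). How far the fuller match rests on this was not tested. The top score was in step 9, at 9978945 to 9981538 (1.99), where the replicate 1 cluster at 9979390 to 9981455 scored 0.89 and the replicate 2 cluster at 9979189 to 9981567 scored 2.62, the highest of replicate 2 in the span. Step 2 followed, at 2624582 to 2628986 (1.68), with 1.09 in replicate 1 and 2.45 in replicate 2. Then came step 20, at 20125803 to 20129527 (1.67), with 0.99 and 2.08. In step 10 the cluster at 10241223 to 10243349 (1.63) was covered to 93.8% by replicate 1 and to 99.8% by replicate 2. The cluster of step 16, at 16533515 to 16537602 (1.55), had scores of 1.08 in replicate 1 and 2.31 in replicate 2.

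The leading clusters of the remaining steps scored lower. Those of steps 6, 15, 1, 17 and 11 scored between 1.40 and 1.53, led by the one at 6736307 to 6741531 in step 6. In step 1, the densest, the cluster at 1902394 to 1905836 (1.49) scored 0.65 in replicate 1 and 1.99 in replicate 2. The cluster of step 6 was the only one of the 20 covered more by replicate 1 (75.7%) than by replicate 2 (73.1%), and its replicate 1 score of 1.10 was the highest among them. The 9 next ones scored between 0.98 and 1.29, from 8291728 to 8294287 in step 8 (1.29) down to 7861159 to 7864714 in step 7 and 13077117 to 13079216 in step 13 (both 0.98). That of step 3, the sparsest step, was at 3996878 to 4001378 (1.03), 4501 bp long, and was covered to 44.5% by replicate 1 and to 97.9% by replicate 2. At 19060494 to 19063175 in step 19 (1.196) both replicates covered nearly the whole cluster, at 96.2% and 99.3%. The lowest was that of step 4, at 4004886 to 4013087 (0.59). It was at once the longest of the 20 (8202 bp) and the one least covered by replicate 1 (22.4%).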

How the data were processed

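Clusters were read from 3 lists, 1 for each ChIP library and 1 combined list of the replicate set. The submitters' processing notes name Bowtie 0.12.7, and coordinates are of FlyBase release 5, per the file headers. No source used here gives the caller, its threshold, the input library used or the making of the combined list. The deposited score of each cluster was taken as log2. Raised as powers of 2, the differences of scores from the most frequent one gave whole-number fractions (denominator up to 200, tolerance 1e-09) for 98.8% of replicate 1 clusters on the X span, 37.6% of replicate 2 and 64.7% of the combined list, against at most 1.65% with base e. The lists hold no read counts, so depth is unknown. Lists of input libraries were not analysed here.

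Clusters were placed in steps of 1 Mb by their midpoint and covered bases by position, the last X step being 0.9 Mb. Last steps shorter than 0.5 Mb on other arms were left out. On 2L, 3L and 3R, 1 Mb was left out at the distal end and 1522827 bp, as on X, at the proximal end. X was compared with these arms over replicates by an exact sign-flip permutation test. Nothing was tested over clusters or steps. Regions named were the top cluster in both replicates of each step, the 5 longest clusters, gaps and runs, and the 3 densest and sparsest steps. The members and these rules were chosen with earlier results of these data known. Alternatives were joined or filtered clusters, other spans, overlaps, steps and arms, and single replicates. Counting was tested on simulated lists. Python 3.11.15, numpy 2.4.6 and scipy 1.17.1 were used.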

Additional observations from a re-analysis of the deposited data

How the results depend on the processing

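The score difference between X and the autosomal arms lay between 0.11 and 0.12 under the alternatives run, except with clusters at or above their list's median score, where it was 0.04 ± 0.043 (SD, n = 2) and no larger than its spread. That filter cuts on the compared score itself and kept a larger share of X clusters than of autosomal ones. With single replicates, the other differences ran from -3.79 to 1.01 percentage points of coverage, from -20.2 to 3.25 clusters per Mb and from -32.5 to 35.5 bp of median length. With clusters at or above their list's median score alone they turned to 1.77 points, 9.83 per Mb and -241.5 bp, and with clusters of at least 2000 bp the length difference was -74.5 bp. That minimum length left 808 clusters and moved coverage to 13.3%, the median length to 2799.5 bp, score to 0.55 and gap to 7750 bp. Shares touched were then 5.07% by both, 40.8% of replicate 1 and 8.69% of replicate 2, the steps ran from 6.07% to 34.7%, and rho between replicates was 0.13. The score filter gave 22.9% coverage, medians of 1605 bp, 0.52 and 3594 bp (gap), 6.61% touched by both, 26.5% of replicate 1 touched, a lowest step of 14.2% and a rho of 0.25. Joining clusters less than 1000 bp apart gave medians of 1736.5 bp, 0.52 and 4370 bp (gap), 11.2% touched by both and a rho of 0.43. An overlap of at least 50% of the shorter cluster lowered the shares touched to 26.1% of replicate 1 and 17.9% of replicate 2. Steps of 500 kb gave a lowest share of 9.76%, a rho of 0.39 and 38 of 40 steps with more in replicate 2, and steps shifted by 500 kb gave 19.3% and 0.49. Without the first step, an alternative chosen after seeing the data, the highest step was 34.2% and rho was 0.31. Beyond what each filter removes by its construction, the cause was not tested. Of the other 52 values, the differences between X and the autosomal arms kept their sign, counts stayed within 1.5 times, coverage (of the span and of the highest and lowest step) moved by less than 1 SD of that value over the 2 replicates, and medians and shares stayed within their 95% intervals over clusters. X and autosomal values were compared within each replicate. Between ChIP and input, no paired analysis was possible because input lists were not analysed here. The depth behind each list is unknown.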

Other observations

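The 7 highest scores of the combined list in the span belonged to clusters of 1001 to 1020 bp that no replicate cluster touched, which was noticed after the values were seen. All were shorter than the shortest cluster of either replicate list in the span (1301 bp). They were at 3310537 to 3311552 and 13323530 to 13324538 (both 3.40), 19697714 to 19698714 (2.72), 3309218 to 3310218, 11432700 to 11433700 and 14451852 to 14452852 (each 2.40), and 2508810 to 2509829 (2.21). Taken as log2, these scores were on a linear scale 8, 5, 4 and 3.5 times the value at the combined list's most frequent score (0.398), in order of score. The eighth was the leading cluster of step 9 (1.99), which both replicates touched. Of the 28 clusters in the highest 1% of scores, 20 were touched by both replicates, 8 by neither and none by a single one, and the 8 had a median length of 1005 bp. Over all 2781 combined clusters of the span, 7.62% were touched by both and 52.5% by neither. The same split of the highest scores was not counted on other arms. Clusters at 3309218 and 3310537 were neighbours within step 3, the sparsest of X. The highest score of replicate 1 in the span, at 20170134 to 20171657 (1.51), was not touched by replicate 2. Scores as high were not particular to X, since the highest combined score was 3.40 on arm 2R, 3.21 on 2L and on 3L, and 2.86 on 3R.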
